A study of Bos taurus with 8 samples.

Results

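Endothelial cells of the bovine choroid (BCE cells) and of the bovine aorta (BAE cells) were compared in their response to LIF by RNA-seq. The difference of the responses was measured as an interaction, the LIF effect in BCE cells minus the LIF effect in BAE cells. All 8 of the 8 libraries of the series entered the fit, in 4 groups of 2. BCE cells received LIF at 10 ng/ml or vehicle (PBS with albumin) for 6 h in medium with 10% bovine calf serum. BAE cells received LIF at 10 ng/ml or vehicle for 6 h in medium with 1% serum. The labels give no genetic change in either cell type, and each had been placed in its assay medium for 3 h before LIF was added. Before that step, BCE cells had been grown on fibronectin with added bFGF and VEGF, and BAE cells without these. The cell types came from different suppliers, and the study's methods do not give the number of donor animals. Cell type, source of the cells, serum and earlier culture therefore changed together, and their parts in any difference cannot be told apart. The study's methods call the 2 libraries of a group biological replicates, without further detail, and p-values measure the spread between them. Replicates are numbered as in the sample titles. The deposited columns carry numbers from 1 to 3, with title replicate 2 always numbered 3. Title replicate 1 is numbered differently in the vehicle and LIF libraries of each cell type. Of 13646 genes with enough counts to be tested, 502 had LIF effects that differed between the cell types.

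LIF (leukemia inhibitory factor) is a cytokine of the interleukin-6 family. It binds the LIF receptor and gp130, whose JAK kinases phosphorylate STAT3, and STAT3 then raises target genes that include its own gene and SOCS3, a feedback inhibitor of the JAK kinases. STAT3 targets include regulators of transcription in the acute phase response, such as CEBPD and BCL3. In endothelial cells the pathway also touches leukocyte adhesion, growth control and the response to angiogenic factors.

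The 4 groups had total counts from 18600598 to 35269335 per library, and scaling factors (TMM) from 0.9603 to 1.034. Levels below are CPM, a count taken relative to the TMM-scaled total of its library, and n is 2 libraries per group. A log2 difference is the LIF effect in BCE cells minus that in BAE cells, so a negative value means the higher LIF effect in BAE cells. Higher is meant by sign, so a gene that fell more in BAE cells has the higher LIF effect in BCE cells. A gene was called where its adjusted p was under 0.05 in edgeR's quasi-likelihood test with Benjamini-Hochberg adjustment over all 13646 genes, and all adjusted p-values here come from that test. The count table holds Ensembl identifiers without names. Names could be given to 111 genes, and all of these had been selected as LIF-responsive in BCE cells on these BCE libraries, while the BAE libraries had no part in that selection. Markers of endothelial cells and of other cell types were not among the named genes, so the labelled cell types could not be checked.

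Most of the differences had the sign of a higher LIF effect in BAE cells. Of the 502 called genes (3.68% of those tested), 344 (2.52%) had the higher LIF effect in BAE cells and 158 (1.16%) the higher one in BCE cells. This split is by sign and not by size, and genes that fell more in BAE cells count among the 158. At an unadjusted p under 0.05, 2185 genes passed. The median absolute log2 difference was 0.54 over the called genes and 0.15 over all genes tested, and the median signed difference over all genes tested was 0.02. A log2 difference beyond 1 in either direction was reached by 84 called genes, 67 of them with the higher effect in BAE cells and 17 with the higher effect in BCE cells. When each LIF library was set against each vehicle library of its cell type, the 4 resulting changes in BCE cells did not overlap the 4 in BAE cells for any of the 502 called genes, against 30.8% of all genes tested without overlap. The count of calls depended strongly on single libraries. It was 948 without BCE vehicle replicate 1, 292 and 272 without BCE LIF replicate 1 or 2, 281 without BAE vehicle replicate 1, and 261 and 293 without BAE LIF replicate 1 or 2. In each of these fits the higher LIF effect was more often in BAE cells, and none of the 502 genes changed sign.

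**Figure D1:**
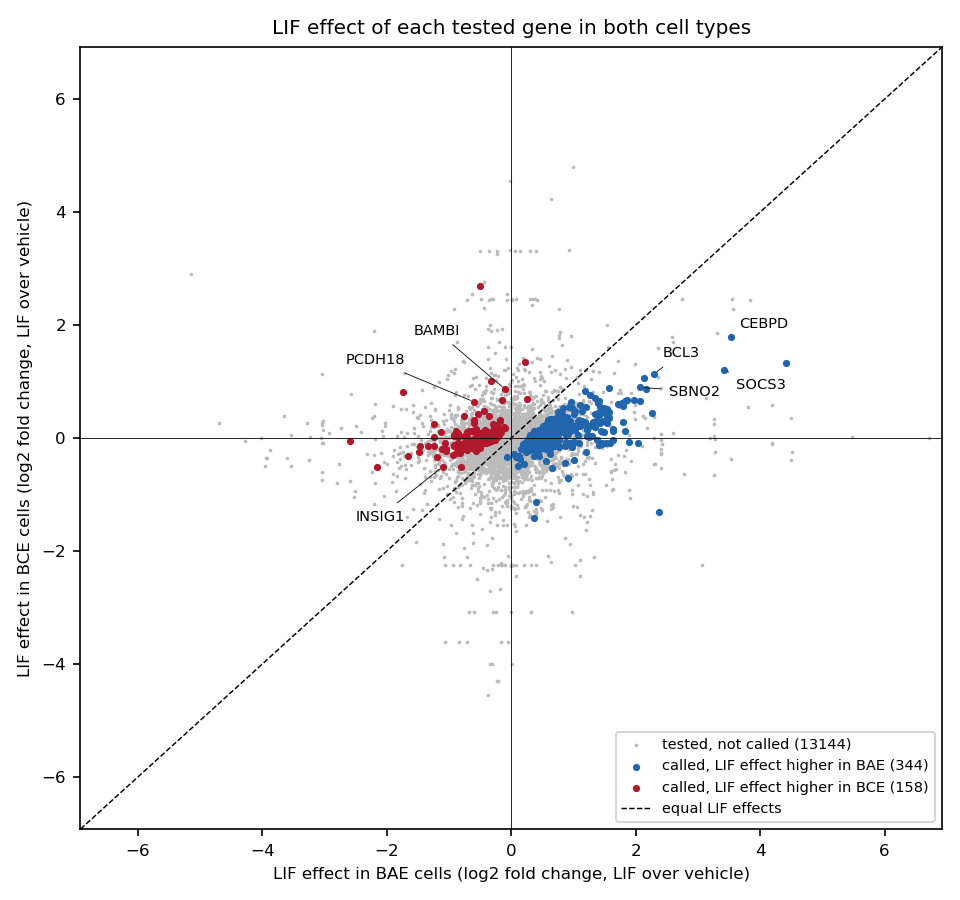
Each point is one of 13646 genes, with the LIF effect in BAE cells (log2 fold change) on the x axis and that in BCE cells on the y axis. The 344 blue points, among them SOCS3, CEBPD and BCL3, lie below the dashed line of equal effects and the 158 red points, among them PCDH18 and BAMBI, above it.

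For most called genes LIF changed expression past the threshold in BAE cells alone. In the same fit, 411 of the 502 called genes had a LIF effect past the threshold in BAE cells and not in BCE cells, 269 of them upward and 142 downward in BAE cells. Passing in BAE cells alone was also the common pattern over all genes tested, with 2280 genes (16.7%) against 36 (0.264%) in BCE cells alone and 181 (1.33%) in both. The median absolute log2 LIF effect of the 411 genes was 0.57 in BAE cells and 0.11 in BCE cells, and 336 of them (81.8%) had a BCE effect under 0.2 in absolute value. These sizes follow in part from the grouping itself, which required a pass in BAE cells and none in BCE cells. Of these 411 genes, 67 changed more than 2-fold in BAE cells, 52 upward and 15 downward. None of the 411 has a name here, because the named genes were all selected on a response in BCE cells.

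Another 68 called genes changed in both cell types in the same direction and more in BAE cells, 63 upward and 5 downward, with median absolute log2 effects of 0.42 in BCE cells against 1.07 in BAE cells. The remaining patterns were rare in the fit of all 8 libraries, and their number moved strongly with single libraries left out. LIF effects past the threshold in BCE cells alone were found for 10 called genes, effects past the threshold in opposite directions for 3, the same direction with the larger effect in BCE cells for 1, and neither effect past the threshold for 9. With each LIF effect fitted on its own 4 libraries, 437 called genes passed in BAE cells alone and 47 in both with the larger effect in BAE cells.

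**Figure D2:**
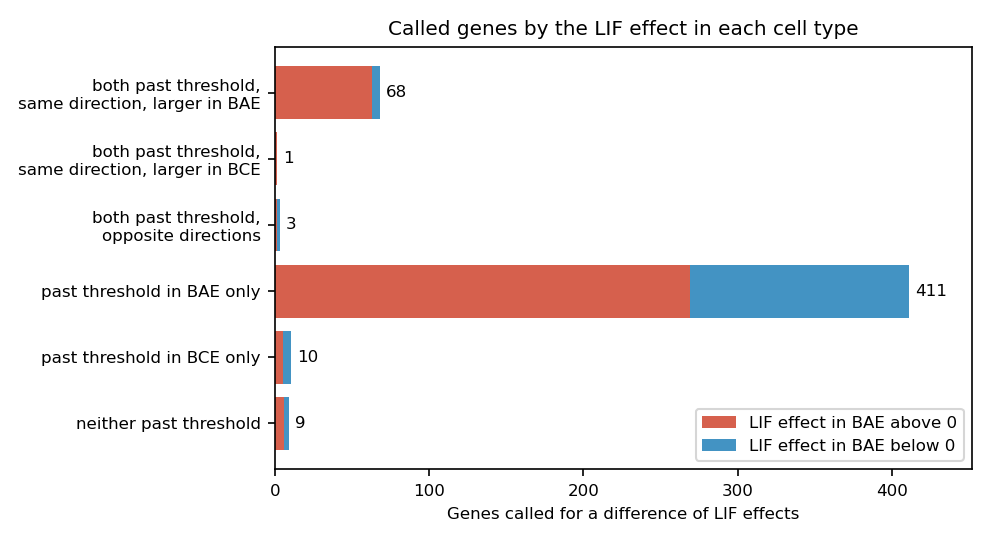
Bars count the 502 called genes (x axis) by whether the LIF effect passed the threshold in BAE, BCE, both or neither, split by the sign of the LIF effect in BAE cells. The bar of 411 genes past the threshold in BAE cells alone is the longest, followed by the 68 that changed in both and more in BAE cells.

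A set of 4 unnamed Ensembl genes was chosen after their values were seen, for the lowest p in either direction of the difference. Their response was near 0 or small in BCE cells and large in BAE cells. ENSBTAG00000021435 stood at 37.6 and 37.9 CPM in the vehicle-treated BCE libraries, 35.5 and 35.2 CPM in the LIF-treated BCE libraries, 25.6 and 24.0 CPM in the vehicle-treated BAE libraries and 73.4 and 76.6 CPM in the LIF-treated BAE libraries. ENSBTAG00000001021 stood at 86.6 and 79.1 CPM in BCE cells with vehicle, 77.8 and 77.7 CPM with LIF, 22.5 and 23.0 CPM in BAE cells with vehicle and 63.0 and 61.4 CPM with LIF. Both rose in BAE cells, and their log2 differences were -1.69 (SE 0.093) and -1.54 (SE 0.088), each with an adjusted p of 8.77e-08. ENSBTAG00000013881 fell in BAE cells from 88.5 and 96.6 CPM to 14.6 and 16.0 CPM, while it stood at 9.41 and 7.47 CPM in BCE cells with vehicle and 8.44 and 7.80 CPM with LIF. ENSBTAG00000018497 fell in BAE cells from 68.9 and 67.4 CPM to 20.7 and 22.6 CPM, and in BCE cells from 189 and 169 CPM to 145 and 143 CPM. Their log2 differences were 2.54 (SE 0.16, adjusted p = 1.05e-07) and 1.34 (SE 0.091, adjusted p = 3.65e-07).

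Of the 111 named genes, 51 were called (45.9%, against 3.68% of all genes tested), 45 with the higher LIF effect in BAE cells and 6 with the higher effect in BCE cells. Since all 111 had been picked for a response in BCE cells, this share is not that of a random list. Of the 85 named genes that rose past the threshold in BCE cells, 42 rose in both cell types and were called for a larger rise in BAE cells. The ratio of the log2 effects, BAE over BCE, ranged from 1.44 to 4.40 in these 42 genes with a median of 2.18, and the median log2 rise was 0.51 in BCE cells and 1.12 in BAE cells. Only 4 of the 85 were called in the other direction, NEDD4L, BAMBI, PCDH18 and RGS3. Of the 24 named genes that fell in BCE cells, 5 were called.

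The feedback inhibitor SOCS3 (ENSBTAG00000008441) had the largest difference among the named genes. It stood at 10.5 and 9.79 CPM in vehicle-treated and 23.9 and 22.9 CPM in LIF-treated BCE cells, and at 6.49 and 6.05 CPM in vehicle-treated and 69.7 and 64.6 CPM in LIF-treated BAE cells. The BAE libraries were the lowest of the 8 with vehicle and the highest with LIF, with no overlap between any groups. LIF raised SOCS3 2.31-fold in BCE cells and 10.7-fold in BAE cells, and the log2 difference was -2.21 (SE 0.13, adjusted p = 1.05e-07). SOCS2, the other inhibitor of this family with a name, fell in both cell types, by 0.47 on the log2 scale in BCE cells and by 0.77 in BAE cells, and its difference of 0.31 (95% interval -0.06 to 0.67) did not pass (adjusted p = 0.406).

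STAT3, the transcription factor through which LIF signals, rose in both cell types and somewhat more in BAE cells. It stood at 216 and 206 CPM in BCE cells with vehicle, 325 and 329 CPM with LIF, 169 and 171 CPM in BAE cells with vehicle and 333 and 328 CPM with LIF. The LIF-treated groups thus overlapped, and the difference came with a lower vehicle level in BAE cells (log2 difference -0.33, SE 0.064, adjusted p = 0.00750). OSMR, the gp130 partner that binds oncostatin M and the only receptor gene of the LIF family with a name here, rose by log2 0.92 in BCE cells and 1.17 in BAE cells (difference -0.26, 95% interval -0.49 to -0.02, adjusted p = 0.266). These intervals are not adjusted for the number of genes.

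Of 31 genes listed as STAT3 targets, 16 had a name here and 12 of them (75%) were called, all with the higher LIF effect in BAE cells, against 45.9% of the named genes and 3.68% of all genes tested. The list, which includes STAT3 itself, was chosen with earlier results of these data known, so these shares are a description and not a test. The median log2 difference of the 16 was -0.71, against 0.02 over all genes tested and -0.27 over the 111 named genes. CEBPD, a transcription factor of the acute phase response, had the lowest p of all 13646 genes. It stood at 84.7 and 88.0 CPM in BCE cells with vehicle, 289 and 309 CPM with LIF, 38.6 and 35.2 CPM in BAE cells with vehicle and 420 and 438 CPM with LIF (log2 difference -1.74, SE 0.080, adjusted p = 1.15e-08). LIF raised it 3.47-fold in BCE cells and 11.6-fold in BAE cells, so the cell type with the lower level before LIF had the higher level after it.

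BCL3, an IkB-like regulator of NF-kB, and BCL6, a transcription repressor, followed the same pattern. BCL3 stood at 47.3 and 45.7 CPM in BCE cells with vehicle, 105 and 99.3 CPM with LIF, 22.0 and 24.2 CPM in BAE cells with vehicle and 114 and 112 CPM with LIF (log2 difference -1.16, SE 0.086, adjusted p = 8.08e-07). BCL6 stood at 9.92 and 9.71 CPM in BCE cells with vehicle, 15.5 and 15.5 CPM with LIF, 7.94 and 7.33 CPM in BAE cells with vehicle and 32.4 and 31.6 CPM with LIF (log2 difference -1.40, SE 0.14, adjusted p = 1.87e-05). Both were lower in BAE than in BCE cells with vehicle and higher with LIF. SBNO2, a transcriptional co-regulator downstream of STAT3, differed little between vehicle-treated cells, with 53.5 and 60.6 CPM in BCE cells and 60.0 and 67.5 CPM in BAE cells, and separated with LIF, to 106 and 107 CPM in BCE cells and 266 and 267 CPM in BAE cells (log2 difference -1.17, SE 0.091, adjusted p = 1.30e-06).

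The interleukin-4 receptor gene IL4R rose 1.55-fold in BCE cells and 2.63-fold in BAE cells (log2 difference -0.76, SE 0.14, adjusted p = 0.00628). Its vehicle-treated BCE libraries stood apart from each other at 161 and 128 CPM, and its level was far lower in BAE cells, at 22.5 and 26.4 CPM with vehicle and 57.7 and 69.3 CPM with LIF. The call of IL4R was lost without BAE vehicle replicate 1 (adjusted p = 0.0652), without BAE LIF replicate 2 (0.0684) and with a robust estimate of the spread (0.139). The targets CH25H, GADD45G, CSRNP1 and HIF1A were not called. CH25H, an enzyme that makes 25-hydroxycholesterol, rose strongly in both cell types, by log2 2.45 in BCE cells and 2.75 in BAE cells (difference -0.29, 95% interval -0.63 to 0.04, adjusted p = 0.382). GADD45G, a growth arrest gene, had a wide interval (-1.80 to 0.29), and CSRNP1 had a difference of -0.33 (adjusted p = 0.151). HIF1A is described with the hypoxia genes.

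**Figure D3:**
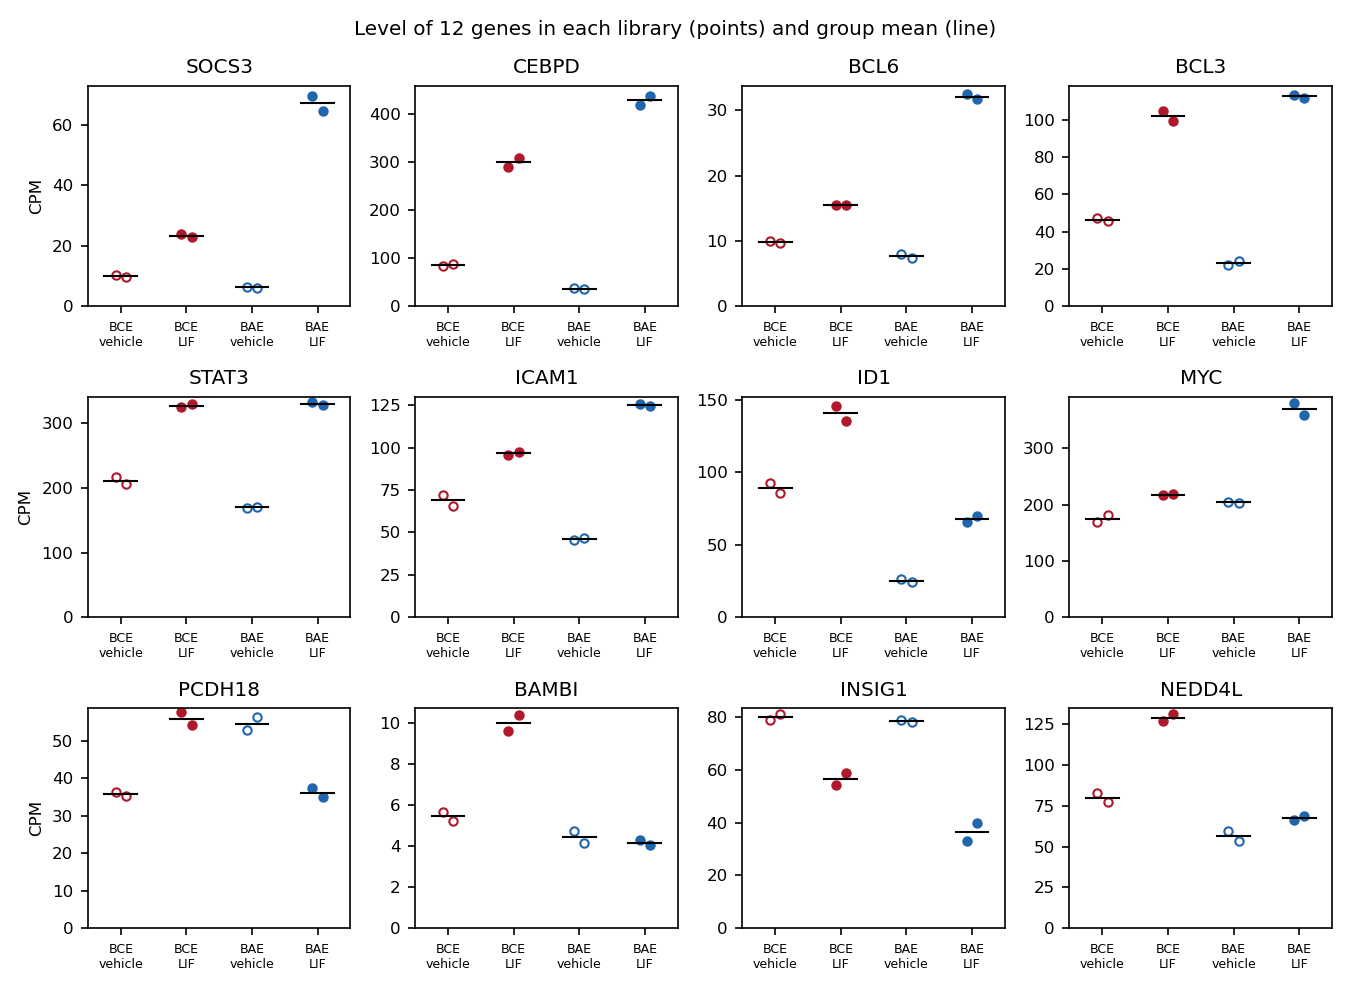
Points show CPM (y axis, from 0) of 12 genes in each of the 8 libraries, by cell type and treatment, and lines show the mean of 2 libraries. SOCS3, CEBPD, BCL6 and BCL3 were lower in BAE than in BCE cells with vehicle and higher with LIF, and PCDH18 crossed in the other direction.

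Among growth-related transcription factors, JUNB, FOSL2, MYC and ETS2 rose more in BAE cells. JUNB, a member of AP-1, stood at 110 and 95.4 CPM in BCE cells with vehicle, 149 and 137 CPM with LIF, 147 and 135 CPM in BAE cells with vehicle and 316 and 307 CPM with LIF (log2 difference -0.66, SE 0.092, adjusted p = 0.000456). With LIF, BCE cells therefore reached about the level that BAE cells had with vehicle. FOSL2, another AP-1 member, rose 1.70-fold in BCE cells and 2.41-fold in BAE cells (log2 difference -0.51, adjusted p = 0.000700). Both of the 2 AP-1 genes with a name were thus called, with the same direction, too few to read against the 45.9% of named genes called. MYC, a driver of growth and ribosome production, stood at 169 and 182 CPM in BCE cells with vehicle, 217 and 219 CPM with LIF, 205 and 203 CPM in BAE cells with vehicle and 381 and 360 CPM with LIF (log2 difference -0.55, SE 0.070, adjusted p = 0.000203). DDX21, an RNA helicase of ribosome assembly, rose 1.20-fold and 1.59-fold in BCE and BAE cells (adjusted p = 0.00208). ETS2, a transcription factor of the ETS family, rose 1.47-fold and 2.68-fold (log2 difference -0.87, adjusted p = 5.32e-05).

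AHR, the ligand-activated aryl hydrocarbon receptor, stood at 22.4 and 20.5 CPM in BCE cells with vehicle, 38.2 and 39.9 CPM with LIF, 10.5 and 12.5 CPM in BAE cells with vehicle and 49.1 and 53.4 CPM with LIF. Its rise was 1.82-fold in BCE cells and 4.50-fold in BAE cells, again with the order of the cell types exchanged by LIF (log2 difference -1.31, SE 0.13, adjusted p = 1.70e-05). MTUS1, a microtubule-associated protein, rose 1.59-fold and 3.92-fold in BCE and BAE cells (log2 difference -1.30, adjusted p = 9.14e-05). ARRDC3, an arrestin-like adaptor of receptor trafficking, rose 1.28-fold and 2.97-fold (log2 difference -1.22, adjusted p = 2.66e-06). MARCHF3, a membrane-bound ubiquitin ligase named here after its values were seen, rose 1.85-fold and 2.96-fold (log2 difference -0.68, adjusted p = 0.000591).

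Genes of the interferon response and of leukocyte contact gave a mixed picture. Of 37 listed interferon response genes 3 had a name, too few to read against the 45.9% of named genes called, and 2 were called with the higher effect in BAE cells. NLRC5, which activates MHC class I genes, stood at 31.0 and 35.0 CPM in BCE cells with vehicle, 45.0 and 43.4 CPM with LIF, 24.7 and 25.3 CPM in BAE cells with vehicle and 73.6 and 69.9 CPM with LIF (log2 difference -1.10, SE 0.10, adjusted p = 9.92e-06). TRIM25, a ubiquitin ligase of antiviral sensing, rose 1.23-fold in BCE cells and 1.93-fold in BAE cells (adjusted p = 9.14e-05). TAP2, a peptide transporter for MHC class I, had a difference of 0.17 that did not pass (adjusted p = 0.526).

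ICAM1, the endothelial adhesion molecule for leukocytes, stood at 72.0 and 65.8 CPM in BCE cells with vehicle, 95.8 and 97.5 CPM with LIF, 45.4 and 47.0 CPM in BAE cells with vehicle and 126 and 125 CPM with LIF (log2 difference -0.95, SE 0.079, adjusted p = 2.37e-06). It was the only called gene of the 4 named members of the NF-kB and leukocyte recruitment list (25%, against 45.9% of all named genes). SELP, the adhesion molecule P-selectin, rose in both cell types with a difference of -0.14 (95% interval -0.33 to 0.05), and the chemokine CCL2 had a difference of 0.30 (-0.18 to 0.77). CD14, a co-receptor for lipopolysaccharide, rose 1.39-fold in BCE cells and 2.02-fold in BAE cells and missed the threshold (log2 difference -0.55, SE 0.16, adjusted p = 0.0710). CD14 passed without BCE vehicle replicate 1 (adjusted p = 0.0292) and without the filter on low counts (0.0318).

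APOL3, of the apolipoprotein L family, rose 1.39-fold and 2.98-fold in BCE and BAE cells (log2 difference -1.10, adjusted p = 0.000128). TNFRSF1A, the main receptor for tumor necrosis factor, rose 1.28-fold in BCE cells and 1.73-fold in BAE cells (log2 difference -0.44, SE 0.063, adjusted p = 0.000615). FAS, the other death receptor with a name, rose by log2 1.36 in BCE cells and 1.71 in BAE cells, and its difference of -0.36 (95% interval -0.81 to 0.10) did not pass.

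Of 38 genes listed as angiogenic ligands and receptors, 10 had a name, and 4 (40%, near the 45.9% of all named genes) were called, all with the higher LIF effect in BAE cells. The median log2 difference of the 10 was -0.06. EFNA1, a ligand of EphA receptors, stood at 35.5 and 30.0 CPM in BCE cells with vehicle, 55.0 and 49.5 CPM with LIF, 7.45 and 6.78 CPM in BAE cells with vehicle and 25.9 and 26.4 CPM with LIF (log2 difference -1.19, SE 0.14, adjusted p = 9.54e-05). It stayed higher in BCE cells throughout, and its rise in CPM was about the same in both, 19.6 in BCE cells and 19.0 in BAE cells. TMEM204, a membrane protein linked to VEGF receptor signaling, rose 1.29-fold and 1.85-fold in BCE and BAE cells (adjusted p = 0.000953).

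VEGFC, the ligand of VEGF receptor 3, was higher in BAE cells before LIF and moved further apart with it, from 91.0 and 93.1 CPM to 115 and 109 CPM in BCE cells and from 249 and 240 CPM to 373 and 395 CPM in BAE cells (log2 difference -0.37, SE 0.072, adjusted p = 0.00750). The call was lost without BAE LIF replicate 2 (adjusted p = 0.0566). THBS2, a matrix protein that restrains angiogenesis, rose 1.28-fold in BCE cells and 1.64-fold in BAE cells (log2 difference -0.36, adjusted p = 0.00691), a call lost without BCE LIF replicate 1 (0.0614) or BAE LIF replicate 1 (0.0583).

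The 6 other named angiogenic genes were not called. PDGFC, a ligand of PDGF receptors, rose 1.33-fold and 1.27-fold in BCE and BAE cells (difference 0.07, 95% interval -0.09 to 0.23). NTS, the neuropeptide neurotensin, rose 1.42-fold and 1.24-fold (difference 0.19, interval -0.004 to 0.39). DAB2IP and ITGAV, an adaptor protein and an integrin subunit, each had a difference of -0.06. TNFSF18, a ligand of the TNF family, stood between 1.24 and 9.18 CPM across the libraries and had a wide interval (-0.30 to 0.85). STC1, a secreted glycoprotein, had at most 4 counts in any BAE library, so its difference of 1.45 (interval -0.40 to 3.30) cannot be read.

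Genes around BMP and TGF-beta signaling went both ways. Of 5 named genes of this list, 2 were called with the higher LIF effect in BAE cells and 1 with the higher effect in BCE cells. The share called was 60%, against 45.9% of all named genes, with too few members to read. ID1, a BMP target that inhibits basic helix-loop-helix factors, stood at 92.7 and 85.9 CPM in BCE cells with vehicle, 146 and 136 CPM with LIF, 26.7 and 24.1 CPM in BAE cells with vehicle and 66.1 and 69.8 CPM with LIF (log2 difference -0.76, SE 0.093, adjusted p = 0.000132). The fold rise was larger in BAE cells, while the rise in CPM was larger in BCE cells, 51.6 against 42.6. ID3, its close relative, fell in both, by 0.38 on the log2 scale in BCE cells and by 0.68 in BAE cells, with a difference of 0.30 that did not pass (adjusted p = 0.188).

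BAMBI, a pseudoreceptor that blocks TGF-beta and BMP receptors, stood at 5.68 and 5.23 CPM in BCE cells with vehicle, 9.61 and 10.4 CPM with LIF, 4.71 and 4.17 CPM in BAE cells with vehicle and 4.30 and 4.04 CPM with LIF. It rose 1.83-fold in BCE cells and did not pass in BAE cells (log2 effect -0.10, adjusted p = 0.703), and the difference itself passed (0.97, SE 0.21, adjusted p = 0.0152). The call of BAMBI was lost without BCE LIF replicate 2 (adjusted p = 0.0810), BAE vehicle replicate 1 (0.103) or BAE LIF replicate 2 (0.0718). LRRC32, which holds latent TGF-beta at the cell surface, had a difference of -0.07 (95% interval -0.33 to 0.20).

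Among sterol genes, those that fell with LIF fell in both cell types. Of these, 2 of 4 (50%, near the 45.9% of all named genes) were called for a larger fall in BAE cells. INSIG1, which retains the sterol-sensing SREBP complex in the endoplasmic reticulum, was at nearly equal levels with vehicle, 79.0 and 80.9 CPM in BCE cells and 78.7 and 78.0 CPM in BAE cells, and fell to 54.2 and 58.7 CPM in BCE cells and 32.9 and 40.0 CPM in BAE cells (log2 difference 0.60, SE 0.11, adjusted p = 0.00377). HMGCS1, an early enzyme of cholesterol synthesis, fell from 231 and 237 CPM to 161 and 169 CPM in BCE cells and from 145 and 142 CPM to 78.1 and 84.5 CPM in BAE cells (log2 difference 0.31, SE 0.073, adjusted p = 0.0277). The call of HMGCS1 was lost without BCE LIF replicate 1 (adjusted p = 0.0726) or 2 (0.212), BAE vehicle replicate 1 (0.124) or 2 (0.0616), or BAE LIF replicate 1 (0.159). FDFT1, squalene synthase, had a difference of 0.20 that did not pass (adjusted p = 0.182).

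Opposite responses past the threshold in both cell types were rare, with 3 of the 502 called genes. By sign alone, LIF effects were opposite for 167 of the 411 genes past the threshold in BAE cells alone. The same held for 8 of the 10 past it in BCE cells alone and for all 9 past it in neither. The BCE effects of the 411 did not pass, with a median absolute log2 of 0.11. PCDH18, a protocadherin of cell adhesion, was the named gene whose levels exchanged order in the reverse way, lower in BCE cells with vehicle and higher with LIF. It rose from 36.5 and 35.3 CPM to 57.6 and 54.1 CPM in BCE cells and fell from 52.8 and 56.3 CPM to 37.4 and 34.9 CPM in BAE cells, with both LIF effects past the threshold (adjusted p = 6.38e-05 in BCE cells and 1.53e-05 in BAE cells). Its log2 difference was 1.23 (SE 0.097, adjusted p = 1.45e-06), and it kept its call with each library left out. RGS3, which shortens G protein signaling, rose from 94.9 and 107 CPM to 122 and 128 CPM in BCE cells and fell from 206 and 211 CPM to 180 and 188 CPM in BAE cells (log2 difference 0.49, SE 0.080, adjusted p = 0.00172). The third gene with opposite effects has no name here.

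NEDD4L, a ubiquitin ligase for membrane transporters and receptors, was the single gene called with a larger change in BCE cells in a shared direction. It stood at 82.6 and 77.0 CPM in BCE cells with vehicle, 127 and 131 CPM with LIF, 59.4 and 53.4 CPM in BAE cells with vehicle and 66.4 and 68.9 CPM with LIF. The rise was 1.61-fold in BCE cells and 1.20-fold in BAE cells (log2 difference 0.43, SE 0.086, adjusted p = 0.00938). The call was lost without BCE LIF replicate 2 (adjusted p = 0.0767), BAE vehicle replicate 1 (0.0850) or BAE LIF replicate 1 (0.0676).

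PLEKHG1 and RAPH1, like BAMBI, were called with a LIF effect past the threshold in BCE cells only, and both are named here after their values were seen. PLEKHG1, an exchange factor for small GTPases, fell in BCE cells from 75.2 and 68.2 CPM to 55.1 and 55.8 CPM, and stood in BAE cells at 92.2 and 93.0 CPM with vehicle and 99.9 and 105 CPM with LIF (log2 difference -0.52, SE 0.082, adjusted p = 0.00146). RAPH1, the actin regulator lamellipodin, fell in BCE cells from 25.8 and 26.2 CPM to 19.2 and 17.7 CPM, and stood in BAE cells between 17.0 and 20.5 CPM. Its difference of -0.60 (SE 0.14, adjusted p = 0.0285) was lost without BCE LIF replicate 1 (0.0658) or 2 (0.144), BAE vehicle replicate 1 (0.142), or BAE LIF replicate 1 (0.148) or 2 (0.0839), while PLEKHG1 kept its call with each library left out. TARS1, threonyl-tRNA synthetase and a target of the amino acid response, rose in both and had one of the smallest called differences (-0.28, adjusted p = 0.0277). It passed without BCE vehicle replicate 1 (0.0258) or 2 (0.00189) and with no other library left out, at adjusted p-values from 0.0652 to 0.113.

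**Figure D4:**
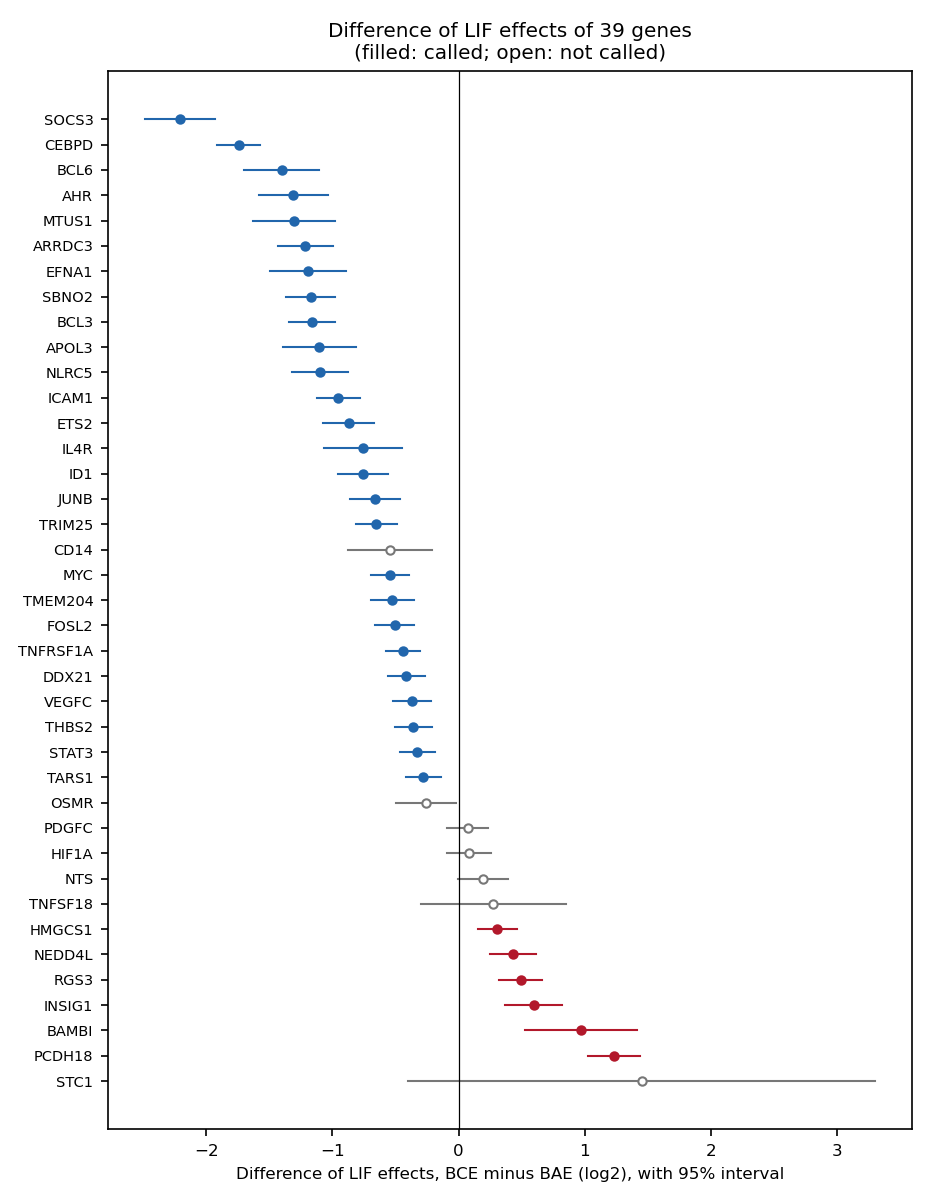
Points show the log2 difference of LIF effects, BCE minus BAE (x axis), of 39 named genes with unadjusted 95% intervals, filled where the gene was called. SOCS3 lies farthest to the left at -2.21 and PCDH18 farthest to the right among the called genes at 1.23, and the interval of STC1 runs from -0.40 to 3.30.

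The 60 named genes that were not called held 50 whose LIF effects passed in both cell types in the same direction, 34 upward and 16 downward. Their median log2 difference was -0.05, with 35 below 0 and 25 above 0, and 18 had an unadjusted p under 0.05. The chemokine receptor CXCR4, picked after its value was seen, fell by log2 0.51 in both cell types at very different levels, from 95.4 and 91.9 CPM to 65.8 and 65.4 CPM in BCE cells and from 371 and 383 CPM to 259 and 269 CPM in BAE cells (95% interval of the difference -0.14 to 0.14). HIF1A, the oxygen-regulated transcription factor, rose 1.60-fold in BCE cells and 1.51-fold in BAE cells (difference 0.09, interval -0.09 to 0.26). NDRG1, a hypoxia-induced gene, had a difference of 0.05 (interval -0.11 to 0.22), and with STC1 these are the 3 hypoxia genes with a name. Of 19 genes that the study itself names for LIF, 15 had a name here, and 8 (53.3%, near the 45.9% of all named genes) were called, all with the higher LIF effect in BAE cells. The study named these 15 as raised by LIF in BCE cells, on these libraries. Among them, MYC rose here at 6 h about 1.2-fold in BCE cells and 1.8-fold in BAE cells. By qRT-PCR at a later time, the study reports a rise of MYC in BCE cells only.

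The difference of LIF effects is also the change that LIF made to the gap in level between the cell types, since both use the same 4 group means. Of the 502 called genes, the gap widened with LIF for 210 (41.8%, against 44.8% of all genes tested), narrowed for 140 (27.9%, against 40.2%) and changed sign for 152 (30.3%, against 15.1%). Among the 42 named genes with a rise in both and a larger one in BAE cells, 27 were higher in BCE cells with vehicle and 10 with LIF. The gap of SOCS3 went from 0.69 to -1.52 (log2, BCE minus BAE), that of CEBPD from 1.22 to -0.52 and that of BCL6 from 0.36 to -1.05. The gap narrowed without changing sign for IL4R, from 2.58 to 1.82, and widened for VEGFC, from -1.41 to -1.78.

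**Figure D5:**
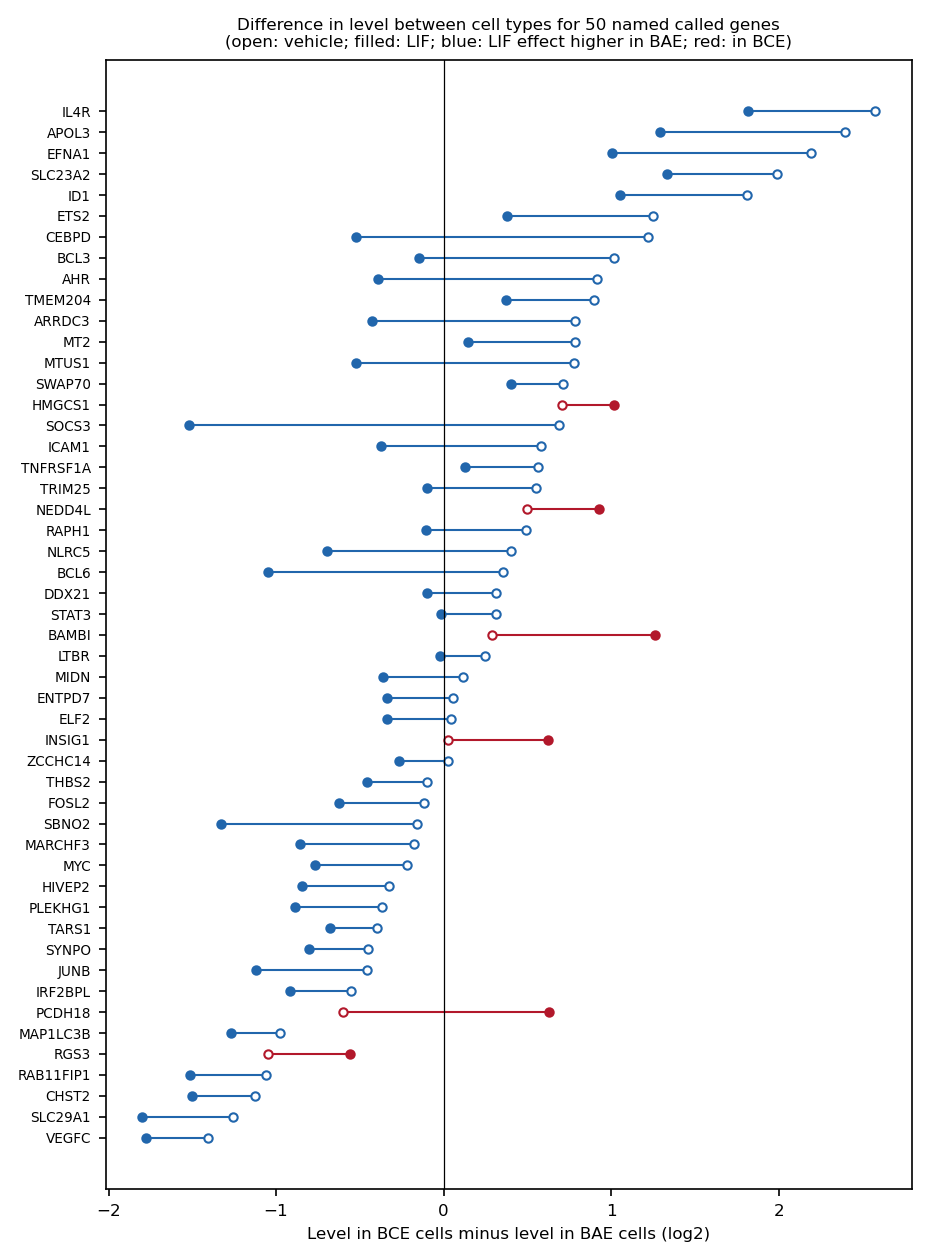
For each of 50 named called genes, an open point gives the level in BCE cells minus that in BAE cells (log2, x axis) with vehicle and a filled point the same with LIF. Blue lines, with the higher LIF effect in BAE cells, run to the left, and for SOCS3, CEBPD, BCL6 and others cross 0, while PCDH18 crosses 0 to the right.

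The scale on which a change is measured matters where the cell types start from different levels. As a difference of changes in CPM instead of log2, 485 of the 502 called genes kept their direction and 17 had the other one. The named genes among the 17 were EFNA1, APOL3, IL4R, ID1, HMGCS1 and the vitamin C transporter gene SLC23A2, all of which had higher levels in BCE cells. IL4R, for example, rose by 79.9 CPM in BCE cells and by 39.1 CPM in BAE cells.

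Among the 1145 tested transcribed units that the authors added without an Ensembl identifier, 22 were called (1.92%, against 3.68% of all genes tested), 15 with the higher LIF effect in BAE cells and 7 with the higher effect in BCE cells. Lists for Notch, cell cycle, lysosome and serum response genes had 0 members among the named genes, so their responses are not reported here. The metallothionein list held no symbol that matched, but the metallothionein MT2, named here after its values were seen, rose 1.64-fold in BCE cells and 2.54-fold in BAE cells (log2 difference -0.63, SE 0.11, adjusted p = 0.00268). Its call was lost with a robust estimate of the spread (adjusted p = 0.0938).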

How the data were processed

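Per the labels and the study's methods, the authors aligned paired-end reads with TopHat2 (2.0.12) and Bowtie2 (2.2.3) to the UMD_3.1 build, counted them on genes with HTSeq (0.6.1) and deposited raw counts for 25889 rows, of which 7879 held no count. Use of strand and treatment of reads shared between genes are not given in the sources used here, so overlapping genes and near-identical copies are uncertain. The authors' table of calls in BCE cells (DESeq 1.18.0) holds fold changes and p-values, and served for names only. A table under the BAE comparison's name holds the same bytes and was not used.

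Counts were analysed in R (4.3.3) with edgeR (4.0.16): filterByExpr (minimum count 10, total 15), TMM, and a quasi-likelihood fit of 4 group means over 8 libraries (common dispersion 0.002965). Standard errors came from the log2 value and its F statistic, and library pairs were compared as log2 CPM (prior count 2). The fit was tested on simulated data. DESeq2 (1.42.0) gave an alternative test, and the other alternatives were size factors, filters, replicate blocks, a robust prior, separate fits, a linear scale and each library left out.

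Of 120 identifiers in the authors' table, 111 were named. Genes in the text were, among those called without overlap of library pairs, the 15 highest and 15 lowest differences, up to 10 with opposite effects, up to 10 larger in BCE cells, and called or study-named list members. MARCHF3, PLEKHG1, RAPH1, SLC23A2, MT2, CXCR4 and uncalled list members were added after their values were seen. The members and lists were chosen with earlier results of these data known. Some named genes are counted but not reported here. Promoters, coordinates and cell type markers were not analysed here.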

Additional observations from a re-analysis of the deposited data

Results flagged for a closer look

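The LIF effect differed between the cell types in 502 genes by the test of the interaction itself. Of the 51 named genes among them, those that met the selection rule given above are listed here with their log2 difference, BCE minus BAE. Those with the higher LIF effect in BAE cells began with the feedback inhibitor SOCS3 at -2.21 and the acute phase factor CEBPD at -1.74. BCL6, AHR and MTUS1 followed at -1.40, -1.31 and -1.30, and ARRDC3, EFNA1, SBNO2 and BCL3 at -1.22, -1.19, -1.17 and -1.16. APOL3 and NLRC5 had both a difference of -1.10, ICAM1 one of -0.95 and ETS2 one of -0.87. IL4R and ID1 stood at -0.76, JUNB at -0.66, TRIM25 at -0.65, MYC at -0.55, TMEM204 at -0.53 and FOSL2 at -0.51. The smaller differences were those of TNFRSF1A at -0.44, DDX21 at -0.41, VEGFC at -0.37, THBS2 at -0.36, STAT3 at -0.33 and TARS1 at -0.28. On the other side, with the higher LIF effect in BCE cells, were PCDH18 at 1.23, BAMBI at 0.97, RGS3 at 0.49 and NEDD4L at 0.43. INSIG1 at 0.60 and HMGCS1 at 0.31 have the same sign, but here LIF lowered expression, and the deeper fall was in BAE cells. Their log2 LIF effects were -0.50 and -0.51 in BCE cells, against -1.10 and -0.81 in BAE cells. Groups of 2 libraries are too small for a test of single libraries that stand apart.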

How the results depend on the processing

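None of the 502 called genes changed direction under the refits on the log2 scale in which they were tested (all 15 for 495 genes and 14 for the other 7, which had under 10 counts in a library), but their number moved with the filter and with single libraries. Calls numbered 507 with DESeq2's size factors (489 shared with the 502), 454 with DESeq2's test (434 shared), 512 with at least 10 counts in every library (472 shared) and 588 with a robust prior (498 shared). Without a filter on low counts they numbered 889, 567 with the higher effect in BAE cells and 322 in BCE cells. Of these 889, 659 passed in BAE cells alone, 128 in both with the larger effect in BAE cells and 102 fell under other patterns, and the gap widened for 356, narrowed for 259 and changed sign for 274. With each library left out, calls ranged from 261 to 948, those with the higher effect in BAE cells from 194 to 647 and in BCE cells from 55 to 301. Over the same fits, genes past the threshold in BAE cells alone ranged from 203 to 602, those in both with the larger effect in BAE cells from 28 to 100 and those under other patterns from 9 to 246. The gap widened for 105 to 332, narrowed for 76 to 271 and changed sign for 80 to 345. Named genes called with the higher effect in BAE cells ranged from 33 to 49 and in BCE cells from 3 to 7. A lone library in a group was assumed to vary like the other groups, and the cause of these shifts was not tested.

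Of the 51 named calls, 33 held with each library left out and 32 under all 15 refits. HIF1A and PDGFC, neither of them called, changed sign with a library left out. HIF1A ranged from -0.031 without BCE vehicle replicate 2 to 0.17, and PDGFC from -0.0044 without BCE LIF replicate 2 to 0.11. As a difference of changes in CPM, BCE minus BAE, EFNA1 stood at 0.55, APOL3 at 0.33, IL4R at 40.8, ID1 at 9.02 and HMGCS1 at -7.59, against the direction on the log2 scale.

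Whether the replicate numbers of the titles pair the samples could not be settled. Correlations of deviations between same-numbered libraries ran from -0.0531 to 0.10, the highest between BCE vehicle and BCE LIF. With 2 libraries per group the deviations of a gene mirror each other, so the other replicate gives the same correlations. They show little deviation shared by same-numbered libraries, but they cannot tell how the samples were handled. A replicate block shared by the cell types gave 521 calls, and a replicate block within each cell type gave 669, with 44 genes under other patterns against 23. With 2 libraries per group and at these depths, a log2 difference under 0.23 was called for no gene.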
